A study of Mus musculus with 12 samples.

Results

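Border macrophages are the macrophages that live at the edges of the brain, in the meninges and around blood vessels, and 8 genes that mark them were followed here in RNA from the medial prefrontal cortex. The genes were Mrc1, Cd163, Lyve1, Stab1, Ms4a7, F13a1, Pf4 and Cbr2, found as the rows of the deposited count table whose Ensembl gene ID carries those symbols. All 8 were among the 55401 gene IDs of the table and among the 21958 genes with enough counts to be tested. The set was built around Mrc1 because earlier results of these data showed its CPM, read counts scaled for library size and composition, higher with the receptor knockdown than with the control virus. Members were chosen by those values, which therefore describe the set and test nothing.

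The samples were medial prefrontal cortex of male mice, sampled at 2 weeks of extinction of a conditioned place preference, the fading of a learned preference for a chamber that had been paired with a drug. Each of 3 groups had 4 libraries. Scramble saline mice received an adeno-associated virus (AAV) with a scramble control sequence and saline, scramble morphine mice received the same kind of virus and morphine, and knockdown morphine mice received an AAV against the serotonin receptor 5-HT6R and morphine. Every group therefore carried a virus, both morphine groups carried the drug, and no group combined the knockdown with saline, so any effect of the knockdown was measured with morphine only. The labels name neither the strain, the age and the promoter of the virus nor the cells it entered, and they leave unsaid whether each library was a different animal. The spread behind every p-value may thus be partly technical. Total counts per library ran from 41483220 to 65739423. Markers of cortical neurons summed to between 5917 and 7666 CPM over the 12 libraries. Htr6, the gene of 5-HT6R, averaged 6.17 ± 1.6 CPM with scramble saline, 5.21 ± 0.32 with scramble morphine and 4.77 ± 0.76 with knockdown morphine (SD, n = 4 each). On the log2 scale the morphine groups differed by -0.13 for Htr6 (SE 0.18, edgeR adjusted p = 0.823), so it does not check the virus labels.

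Border macrophages derive from early yolk sac precursors or from blood monocytes, depend on the CSF1 receptor as microglia do, and take up proteins, lipids and debris from cerebrospinal fluid and the spaces around vessels. Microglia, the macrophages inside the brain tissue, hold little of the mannose receptor encoded by Mrc1 or of the haemoglobin receptor encoded by Cd163, which is why these genes tell the populations apart in bulk brain RNA. Macrophage genes of this kind usually lack a TATA box and are switched on through short sites for PU.1, the ETS-family factor that sets macrophage identity.

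Promoters were examined because several of the genes stood higher in the same libraries. RefSeq promoter windows (GRCm38.p6, the assembly of mm10) covered 7 of the 8 genes, Lyve1 being the exception, and the 250 bases before each start site were read. The 4 windows below belong to Mrc1 and F13a1, whose libraries separated by virus, to Stab1, the most abundant of the set, and to Pf4, whose window alone held a full PU.1 site. They are written 5′ to 3′ in the direction of the gene, with each ETS core AGGAA or its complement TTCCT in capitals, and in Pf4 the longer PU.1 site that contains the core.
Mrc1, chr2:14229164-14229413, plus strand: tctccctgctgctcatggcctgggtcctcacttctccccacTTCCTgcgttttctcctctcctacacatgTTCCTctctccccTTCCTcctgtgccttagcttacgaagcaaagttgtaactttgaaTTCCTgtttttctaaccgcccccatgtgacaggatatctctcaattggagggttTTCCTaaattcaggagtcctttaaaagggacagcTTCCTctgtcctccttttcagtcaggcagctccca
F13a1, chr13:37050245-37050494, minus strand: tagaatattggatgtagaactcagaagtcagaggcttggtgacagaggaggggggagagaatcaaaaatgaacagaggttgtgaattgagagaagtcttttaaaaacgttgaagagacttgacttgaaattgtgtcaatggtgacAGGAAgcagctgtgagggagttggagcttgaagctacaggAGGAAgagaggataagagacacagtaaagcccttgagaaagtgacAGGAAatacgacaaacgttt
Stab1, chr14:31168642-31168891, minus strand: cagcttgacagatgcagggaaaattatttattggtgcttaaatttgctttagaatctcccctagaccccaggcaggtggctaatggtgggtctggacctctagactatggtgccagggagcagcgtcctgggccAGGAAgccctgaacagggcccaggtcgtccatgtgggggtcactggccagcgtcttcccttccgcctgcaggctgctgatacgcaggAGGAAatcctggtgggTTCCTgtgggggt
Pf4, chr5:90772185-90772434, plus strand: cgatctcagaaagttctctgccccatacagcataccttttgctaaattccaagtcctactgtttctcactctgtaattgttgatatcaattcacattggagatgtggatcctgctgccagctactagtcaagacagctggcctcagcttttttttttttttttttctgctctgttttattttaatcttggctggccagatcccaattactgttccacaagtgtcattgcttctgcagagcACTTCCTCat

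Counted on both strands, the Mrc1 window held 6 ETS cores, that of the first F13a1 start site held 3 and that of Stab1 held 3. Of 32851 promoter windows of the same length, 60.3% held at least 1 such core, 9.02% at least 3 and 0.237% at least 6. The second F13a1 start site held 2 cores, Cbr2 held 2, Cd163 held 1, Pf4 held 1, and both start sites of Ms4a7 held 2. The PU.1 site GAGGAAGT or its complement ACTTCCTC occurred in the Pf4 window and in 2.44% of all windows. A glucocorticoid receptor binding-site core, AGAACA, occurred once in the Cd163 window and once at the second start site of Ms4a7, against 16.1% of all windows, while the MAF core TGCTGAC (3.81% of all windows) and the TATA box TATAAA (12.4%) matched in none of these windows. A match describes the letters of a window only and shows no binding.

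Levels between genes were compared per kilobase of merged exons. With scramble saline, Stab1 stood first at 2.96 ± 0.44 CPM per kilobase (SD, n = 4), followed by Pf4 at 0.846 ± 0.3 and Mrc1 at 0.819 ± 0.074, which did not differ beyond their spread. Cbr2 (0.438 ± 0.235), Ms4a7 (0.427 ± 0.168), Cd163 (0.402 ± 0.192) and F13a1 (0.308 ± 0.104) followed within each other's spread, and Lyve1 was lowest at 0.149 ± 0.056 CPM per kilobase. With knockdown morphine the order was Stab1 (4.97 ± 1.81), Mrc1 (1.83 ± 0.36), Pf4 (1.28 ± 0.50), Cbr2 (1.20 ± 0.45), F13a1 (0.805 ± 0.086), Cd163 (0.592 ± 0.043), Ms4a7 (0.470 ± 0.197) and Lyve1 (0.441 ± 0.202). Mrc1 had thus moved above Pf4 in order, and its spread still met that of Pf4. Apart from Stab1, with 939 to 3492 counts per library, the transcripts were scarce in this tissue. Counts per library ran from 8 to 87 for Lyve1 and from 163 to 709 for Mrc1.

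**Figure D1:**
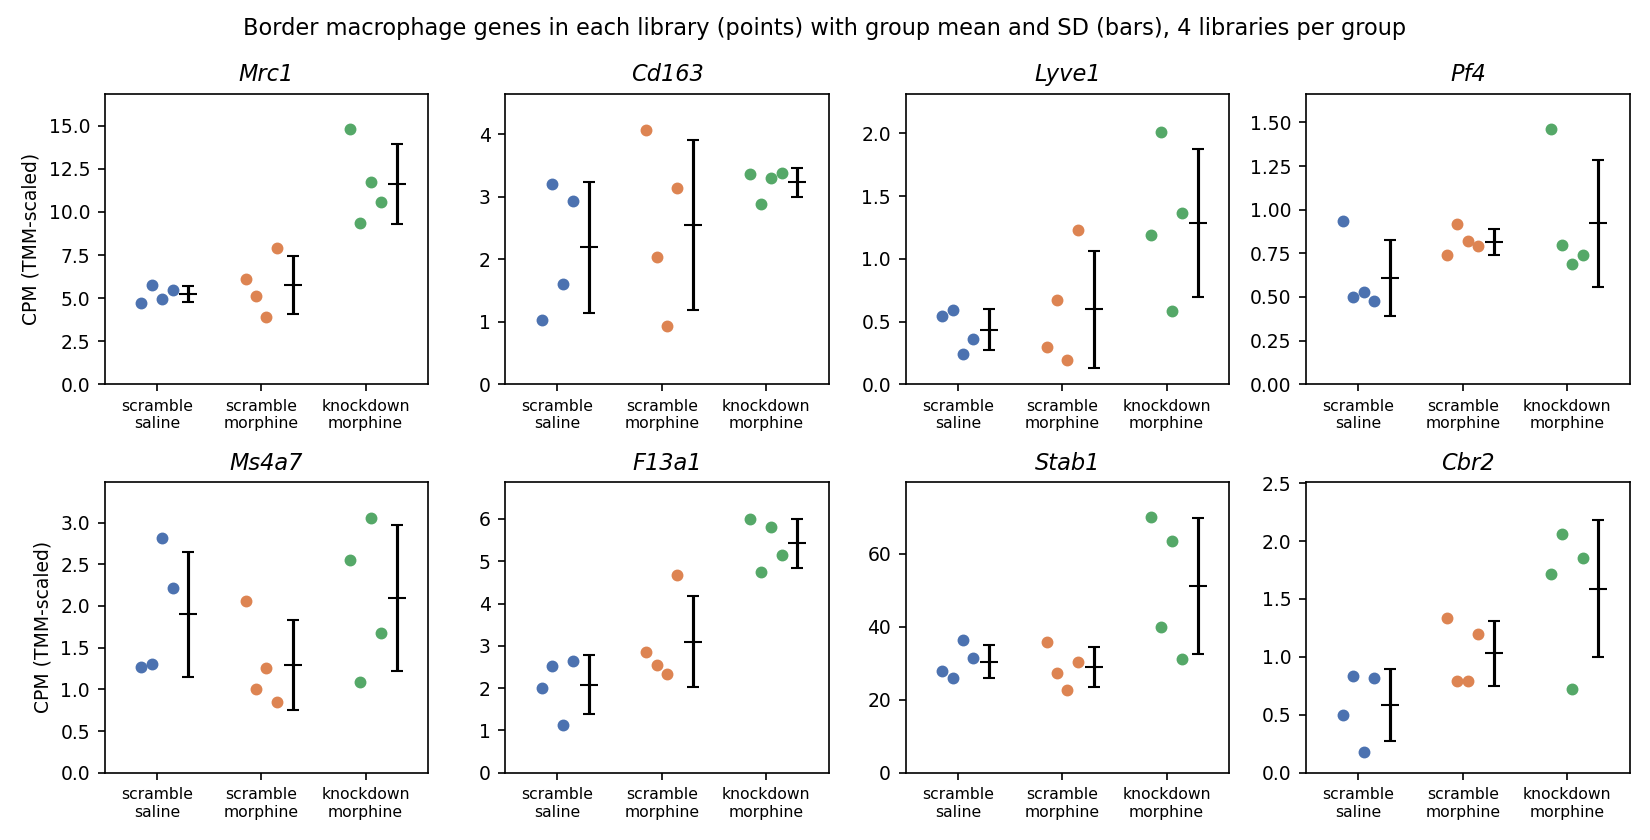
CPM of each of the 8 border macrophage genes in each library (points) by group, with the group mean and SD beside them (bars, 4 libraries per group). The 4 knockdown morphine libraries lie above all 8 scramble libraries for Mrc1 (9.37 to 14.8 CPM) and F13a1 (4.75 to 5.99 CPM), and the groups overlap for the other genes.

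The endocytic receptors of the set are Mrc1, Stab1, Cd163 and Lyve1. Mrc1, the mannose receptor CD206 (ENSMUSG00000026712, mm10 chromosome 2, 14229392 to 14332057, plus strand), binds and internalises glycoproteins. It gave 4.70, 5.74, 4.97 and 5.46 CPM in the scramble saline libraries of replicates 2, 3, 4 and 5. Its level was 6.14, 5.10, 3.93 and 7.89 CPM with scramble morphine (replicates 1, 3, 4 and 5) and 14.8, 9.37, 11.8 and 10.6 CPM with knockdown morphine (replicates 1, 2, 3 and 5). Every knockdown library lay above every scramble library, with knockdown replicate 1 highest and scramble morphine replicate 5 the nearest below. The group means were 5.22 ± 0.47, 5.76 ± 1.68 and 11.6 ± 2.32 CPM (SD, n = 4), a log2 difference of 1.01 (SE 0.19, 2.01-fold) between knockdown and scramble with morphine. In bulk tissue more border macrophages and more Mrc1 RNA per macrophage cannot be told apart.

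Stab1, stabilin-1 (ENSMUSG00000042286, mm10 chromosome 14, 31139013 to 31168641, minus strand), is a scavenger receptor of macrophages and some endothelium. In the same order of replicates it gave 28, 26.1, 36.3 and 31.6 CPM with scramble saline, 35.8, 27.2, 22.6 and 30.4 with scramble morphine, and 70.1, 40.0, 63.5 and 31.1 with knockdown morphine. Knockdown replicates 1 and 3 stood far above the rest, whereas knockdown replicate 5 lay inside the range of the scramble libraries. The morphine groups differed by 0.82 on the log2 scale (SE 0.24). Its exons overlap Nt5dc2 on the other strand, and use of the strand in counting is not given here, and Nt5dc2 stood at 3.48 ± 0.86 and 3.35 ± 0.73 CPM in the scramble and knockdown morphine groups (SD, n = 4). The part of Nt5dc2 reads in the Stab1 values was not tested.

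Cd163 (ENSMUSG00000008845, mm10 chromosome 6, 124304656 to 124330527, plus strand) encodes the scavenger receptor that clears haemoglobin bound to haptoglobin. It gave 1.03, 3.21, 1.6 and 2.94 CPM with scramble saline, 4.08, 2.04, 0.939 and 3.14 with scramble morphine, and 3.36, 2.88, 3.31 and 3.38 with knockdown morphine. The highest library was a scramble morphine one, and the knockdown libraries stood close together (3.23 ± 0.23 CPM) while both scramble groups spread widely (2.19 ± 1.05 and 2.55 ± 1.36, SD, n = 4 each). Lyve1 (ENSMUSG00000030787, mm10 chromosome 7, 110850607 to 110863239, minus strand), a hyaluronan receptor shared with lymphatic endothelium, gave 0.547, 0.589, 0.240 and 0.363 CPM with scramble saline, 0.299, 0.675, 0.193 and 1.23 with scramble morphine, and 1.19, 2.01, 0.582 and 1.37 with knockdown morphine. Knockdown replicate 3 and scramble morphine replicate 5 made the morphine groups overlap. Its log2 difference between knockdown and scramble with morphine, 1.08 (SE 0.52), was 1.71 without scramble morphine replicate 5.

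The secreted proteins of the set are coagulation factor XIII A and platelet factor 4. F13a1 (ENSMUSG00000039109, mm10 chromosome 13, 36867178 to 37050244, minus strand) encodes the transglutaminase that crosslinks fibrin. It gave 2.01, 2.53, 1.12 and 2.65 CPM with scramble saline, 2.85, 2.54, 2.34 and 4.69 with scramble morphine, and 5.99, 4.75, 5.82 and 5.15 with knockdown morphine. As for Mrc1, every knockdown library lay above every scramble library, although knockdown replicate 2 exceeded scramble morphine replicate 5 only narrowly. The means were 2.08 ± 0.70, 3.10 ± 1.08 and 5.43 ± 0.58 CPM (SD, n = 4), so that scramble morphine stood between the other groups.

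Pf4 (ENSMUSG00000029373, mm10 chromosome 5, 90772435 to 90773383, plus strand) encodes the chemokine CXCL4, which platelets also store. It gave 0.933, 0.503, 0.527 and 0.477 CPM with scramble saline, 0.740, 0.917, 0.819 and 0.793 with scramble morphine, and 1.46, 0.796, 0.691 and 0.738 with knockdown morphine. Apart from knockdown replicate 1, the knockdown libraries lay within or below the scramble morphine range. Without that library the log2 difference of the morphine groups turned from 0.17 (SE 0.33) to -0.15. Of 10 markers of platelets and megakaryocytes, 7 could be tested, and 0 had an unadjusted edgeR p under 0.05 in any comparison. Of all genes, 3.48, 12 and 9.35% had such a p in morphine against saline, knockdown against scramble with morphine and knockdown morphine against scramble saline. The summed level of the 10 markers ran from 5.52 to 6.50, 5.37 to 6.67 and 5.29 to 6.89 CPM in scramble saline, scramble morphine and knockdown morphine.

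Ms4a7 (ENSMUSG00000024672, mm10 chromosome 19, 11321039 to 11336146, minus strand) encodes a membrane protein of border macrophages that resting microglia largely lack. It gave 1.27, 1.3, 2.81 and 2.21 CPM with scramble saline, 2.06, 1, 1.25 and 0.853 with scramble morphine, and 2.55, 1.09, 3.05 and 1.68 with knockdown morphine. Knockdown and saline libraries covered nearly the same range, and most scramble morphine libraries lay at its lower end. Cbr2 (ENSMUSG00000025150, mm10 chromosome 11, 120729489 to 120732114, minus strand), a carbonyl reductase, gave 0.499, 0.832, 0.176 and 0.821 CPM with scramble saline, 0.795 to 1.34 with scramble morphine, and 1.71, 2.06, 0.727 and 1.85 with knockdown morphine. All knockdown libraries but replicate 3 exceeded all scramble libraries for Cbr2.

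Between 5-HT6R knockdown and scramble, both with morphine, the comparison that the set was built on, all 8 genes had a log2 difference above 0, with a median of 0.75. The median over all genes tested was 0.004, and 50.7% of them lay above 0. Lyve1 (1.08) and Mrc1 (1.01) differed most, Stab1 (0.82), F13a1 (0.80, 1.74-fold), Ms4a7 (0.70) and Cbr2 (0.61) followed, and Cd163 (0.33) and Pf4 (0.17) differed least. The value of Cd163 was 0.065 without scramble morphine replicate 4 and 0.65 without scramble morphine replicate 1, and that of Ms4a7 was 0.46 without knockdown replicate 3. Knockdown libraries lay above scramble morphine libraries without overlap for 2 of the 8, Mrc1 and F13a1, while 2.59% of all genes tested did so, and 0 of the 8 lay below without overlap (3.26% of all genes). No p is given for the 8 genes here because this contrast chose them, and 0 of all genes tested passed at an adjusted p of 0.05 in edgeR (0% called), with 2643 (12%) under an unadjusted 0.05 and 157 passing in DESeq2. The ribosomal RNA locus CT010467.1 took 2.38 to 3.04% of the counts of scramble morphine libraries and 4.57 to 9.38% of knockdown libraries, so that between these groups this share and the virus cannot be told apart. In scramble saline libraries it took 3.58 to 5.63%, which overlaps the knockdown libraries. With that share as a covariate the log2 difference was 0.79 for Mrc1 and 0.59 for F13a1 but -0.63 for Pf4 and -0.15 for Cbr2.

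**Figure D2:**
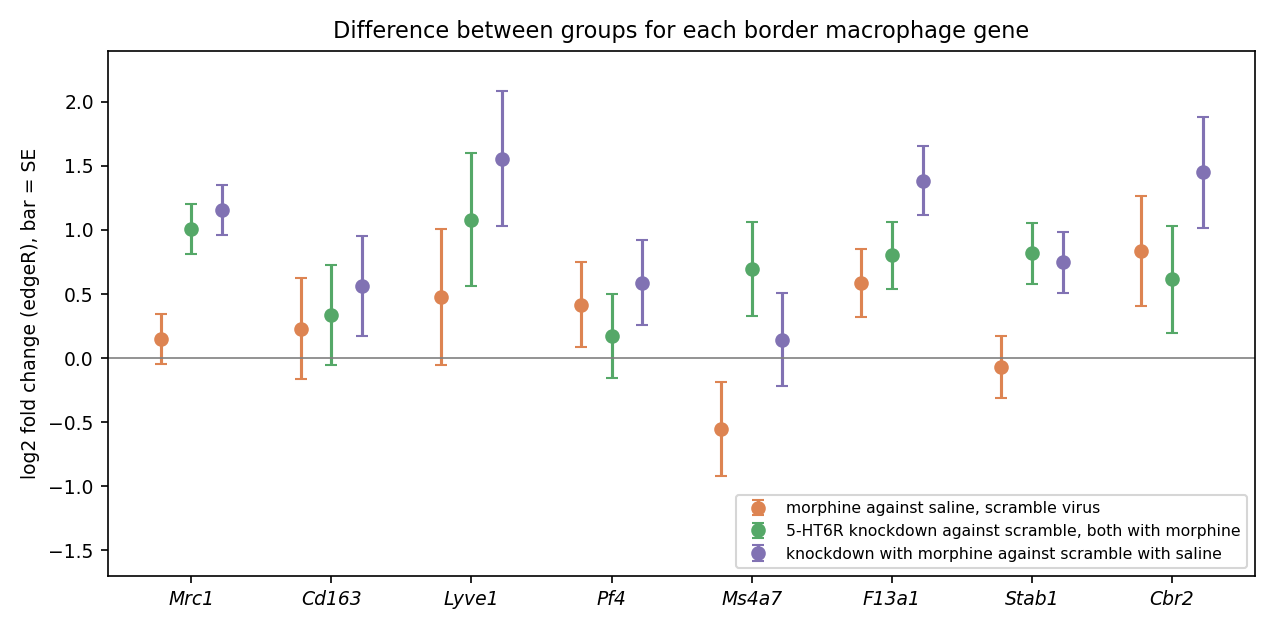
Log2 fold change of each gene from edgeR in the 3 comparisons (colours), with bars of 1 SE either side. Both comparisons of knockdown morphine lie above 0 for all 8 genes (0.17 to 1.08 and 0.14 to 1.56), and morphine against saline with the scramble virus lies below 0 for Ms4a7 (-0.55) and Stab1 (-0.07).

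Morphine against saline, both with the scramble virus, asked what morphine left in this gene set without the knockdown. Of the 8 genes 6 lay above 0, with a median of 0.32 against -0.0012 over all genes tested. Cbr2 (0.84, SE 0.43), F13a1 (0.58, SE 0.27) and Lyve1 (0.48, SE 0.53) stood highest, Mrc1 differed by 0.15 (SE 0.19), and Ms4a7 lay lowest at -0.55 (SE 0.37). The scramble morphine libraries are among those whose values chose the set. These differences are therefore a description, and no test of the 8 genes is read from them. As values only, of the 7 genes other than Mrc1, 0 passed at an adjusted p of 0.05 (0% of all genes tested did, 765 had an unadjusted p under 0.05, and 4 passed in DESeq2). The edgeR adjusted p was 0.999 for each of them. At an unadjusted edgeR p under 0.05 1 of them, F13a1, was higher and 0 were lower, where 1.67 and 1.82% of all genes did so (3.48% in either direction). The groups overlapped for all 8, while 1.55% of all genes were higher and 1.77% lower without overlap. The difference of F13a1 was 0.31 (SE 0.25) without scramble morphine replicate 5 and 0.37 (SE 0.24) without scramble saline replicate 4, and the median of the 8 was 0.033 and 0.20 without these libraries. The ribosomal RNA locus took 3.58 to 5.63% of the counts of saline libraries and 2.38 to 3.04% of those of scramble morphine libraries, again without overlap. With that share as a covariate the difference was 0.78 for Pf4 and 1.25 for Cbr2.

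Knockdown with morphine against scramble with saline sets the same knockdown libraries against the other control group, and it mixes drug and virus. All 8 genes lay above 0, with a median of 0.95 against -0.0019 over all genes tested. Lyve1 was 2.94-fold, Cbr2 2.73-fold, F13a1 2.61-fold and Mrc1 2.23-fold the saline level. On the log2 scale Lyve1 differed by 1.56 (SE 0.53), Cbr2 by 1.45 (SE 0.43), F13a1 by 1.39 (SE 0.27), Mrc1 by 1.16 (SE 0.19) and Stab1 by 0.75 (SE 0.24). Pf4 (0.59, SE 0.33), Cd163 (0.56, SE 0.39) and Ms4a7 (0.14, SE 0.36) differed least, and without knockdown replicate 1 Pf4 stood at 0.27. Libraries of the 2 groups did not overlap for Mrc1 and F13a1, where 2.18% of all genes tested did so in that direction and 2.16% in the other. The knockdown libraries are those whose values chose the set, so these differences are a description and no test of the 8 genes is read from them. As values only, the edgeR adjusted p of the 7 genes other than Mrc1 ran from 0.16 (F13a1) to 0.944 (Ms4a7). The adjusted p of F13a1 was 0.000559 in DESeq2, the only 1 of 23 alternatives in which it was under 0.05. In the other alternatives it reached up to 0.538.

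The 8 genes did not move as a block from library to library. Knockdown replicate 1 was highest of all 12 libraries for Mrc1, Stab1, F13a1 and Pf4, and knockdown replicate 2 was highest of all for Lyve1 and Cbr2 while lowest of the knockdown group for Mrc1, Cd163, Ms4a7 and F13a1. Knockdown replicate 3 was high for Stab1 and Ms4a7 and lowest of its group for Lyve1, Pf4 and Cbr2. Their summed level ran from 39.0 to 47.8 CPM with scramble saline, 32.9 to 53.3 with scramble morphine and 55.9 to 101 with knockdown morphine, and Stab1 gave 69.9, 66.0 and 64.9% of it. Without Stab1 the sums were 11 to 14.9, 10.3 to 19.8 and 23.0 to 31.1 CPM.

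**Figure D3:**
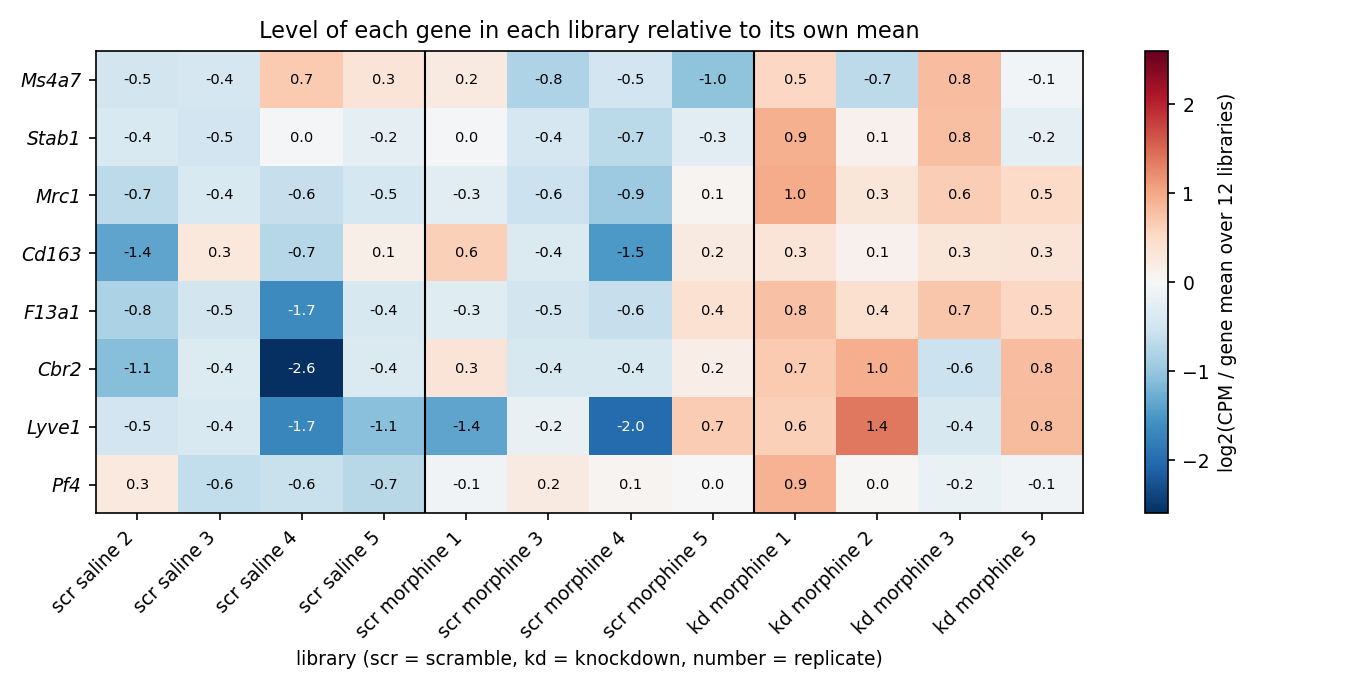
Log2 of each gene's CPM over its own mean in the 12 libraries, with libraries in columns (scr, scramble; kd, knockdown; the number is the replicate) and genes in rows; red is above and blue below the mean of the gene. Mrc1 and F13a1 are above 0 in all 4 knockdown libraries, whereas Ms4a7 and Lyve1 often take opposite colours within a group.

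Relations between genes were measured over the 12 libraries after subtracting each group's mean, which removes the group difference that chose Mrc1. Mrc1 went with Cd163 (Pearson r = 0.72, permutation p = 0.0115, adjusted 0.0403 over 7 relations; Spearman rho = 0.776, permutation p = 0.00961, adjusted 0.0336) and with F13a1 (r = 0.663, permutation p = 0.0058, adjusted 0.0403; rho = 0.755, permutation p = 0.00933, adjusted 0.0336). Without the 2 libraries farthest from the median of Mrc1, scramble morphine replicates 5 and 4, r was 0.547 and 0.458. With each library left out, r ran from 0.50 to 0.80 for Cd163 and from 0.47 to 0.89 for F13a1, and 0 to 2 of the 7 relations passed. Adjusted over all 28 pairs of the 8 genes neither passed (adjusted permutation p = 0.107 and 0.0812). Whether the 2 relations passed thus depended on single libraries and on the adjustment. Stab1 gave r = 0.588 (rho = 0.629, adjusted permutation p = 0.164 and 0.134) and 0.640 without scramble morphine replicates 5 and 4. Lyve1 (r = 0.391), Cbr2 (0.249), Ms4a7 (0.174) and Pf4 (0.117) had adjusted permutation p of 0.53, 0.53, 0.688 and 0.688 for r. Among the pairs without Mrc1, Lyve1 and Ms4a7 ran in opposite directions (r = -0.794, rho = -0.839, permutation p = 0.00445 for r, adjusted 0.0812 over 28 pairs), a pair picked out after its value was seen.

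The genes whose pattern was most like that of Mrc1 were ranked by Pearson r of log2 CPM over the 12 libraries among 13696 genes of at least 1 CPM on average. Pla1a (r = 0.963), a phospholipase, Tgfbr3 (0.944), the TGF-beta co-receptor betaglycan, and Fzd1 (0.934), a Wnt receptor, came first. They were followed by Oat (0.922), Fbln1 (0.920), Pttg1ip (0.911), Tob2 (0.910), Nid1 (0.904), mt-Tg (0.903) and Lrrc58 (0.903). Pla1a averaged 1.93 ± 0.21, 2.24 ± 0.51 and 3.28 ± 0.43 CPM in scramble saline, scramble morphine and knockdown morphine (SD, n = 4), and its knockdown libraries (2.93 to 3.90) lay above all others (1.70 to 2.80). Of the set itself, F13a1 stood at rank 26 (r = 0.872), Stab1 at 89 (0.818), Cd163 at 469 (0.683), Cbr2 at 926 (0.598) and Ms4a7 at 3127 (0.320). These r hold the group difference that chose Mrc1. With group means subtracted the first 10 were Mif4gd (0.946), Rrm2 (0.936), Cdh5 (0.928), Pla1a (0.908), Tgfbr3 (0.899), Zfp469 (0.897), Pttg1ip (0.892), Lima1 (0.892), Nat8f1 (0.887) and Fam117a (0.882), and Pla1a, Tgfbr3 and Pttg1ip were in both sets of 10. Of the set, Cd163 then stood at rank 187, F13a1 at 328, Stab1 at 650, Cbr2 at 3516 and Ms4a7 at 4384. Libraries, depth and composition are shared by all points, and these r are a description.

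Other genes of border macrophages were counted beside the 8. Of 36 such genes 31 could be tested, and between knockdown and scramble with morphine 22 lay above 0 with a median log2 difference of 0.23, while 0 passed at an adjusted edgeR p of 0.05. At an unadjusted edgeR p under 0.05, 3 stood higher and 1 lower, where 5.87 and 6.17% of all genes did. Ms4a4a, a relative of Ms4a7, averaged 0.671 ± 0.251 CPM in knockdown and 0.298 ± 0.066 CPM in scramble morphine libraries (SD, n = 4 each), which is 1.16 on the log2 scale (SE 0.38). Siglec1, the sialic acid receptor CD169, stood at 3.30 ± 1.55 and 1.73 ± 0.48 CPM (0.94, SE 0.37), and Fcna, a ficolin, was lower by the point value (-1.46, SE 0.65). In knockdown morphine against scramble saline 24 of 31 lay above 0 with a median of 0.35, 4 stood higher and 1 lower at an unadjusted edgeR p under 0.05 (4.97 and 4.37% of all genes), and Colec12, a scavenger receptor, and Maf, a macrophage transcription factor, differed by 0.50 (SE 0.17) and 0.35 (SE 0.12). In morphine against saline the median was 0.08, with 0 higher and 1 lower by the same rule (1.67 and 1.82% of all genes; Ccl12, -0.99, SE 0.38). Marco was at 0 in all 12 libraries.

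Microglia markers lay mostly on the other side of 0 where knockdown libraries were compared. Knockdown morphine against scramble saline had 5 of 20 above 0 (median -0.16), whereas morphine against saline had 13 (median 0.08). Between knockdown and scramble with morphine 4 of 20 lay above 0 with a median of -0.16, 0 passed the adjusted test, and 0 stood higher and 4 lower at an unadjusted edgeR p under 0.05 (5.87 and 6.17% of all genes). Siglech gave 13.8 ± 2.10 CPM with the knockdown and 19.4 ± 3.70 with scramble (-0.49, SE 0.14), Cst3 568 ± 88.9 and 780 ± 115 (-0.46, SE 0.14), and Tmem119 25.6 ± 4.14 and 32.7 ± 4.02 (-0.36, SE 0.12; SD, n = 4). The summed microglia level ran from 1158 to 1566, 1254 to 1680 and 961 to 1396 CPM in scramble saline, scramble morphine and knockdown morphine. Cst3 alone averaged 641, 780 and 568 of mean sums of 1344, 1523 and 1183 CPM, so the sum leans heavily on that gene. Genes that macrophages and microglia share, such as Csf1r and the C1q chains, lay on both sides of 0 (12 of 22 above, median 0.05), and Cd14, the lipopolysaccharide co-receptor, was the 1 of them under an unadjusted 0.05 (0.59, SE 0.25). MHC class II genes had 0 of 7 above 0 and a median of -0.14, with 0 under an unadjusted edgeR p of 0.05. The difference between the border macrophage genes and the microglia markers was not tested.

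**Figure D4:**
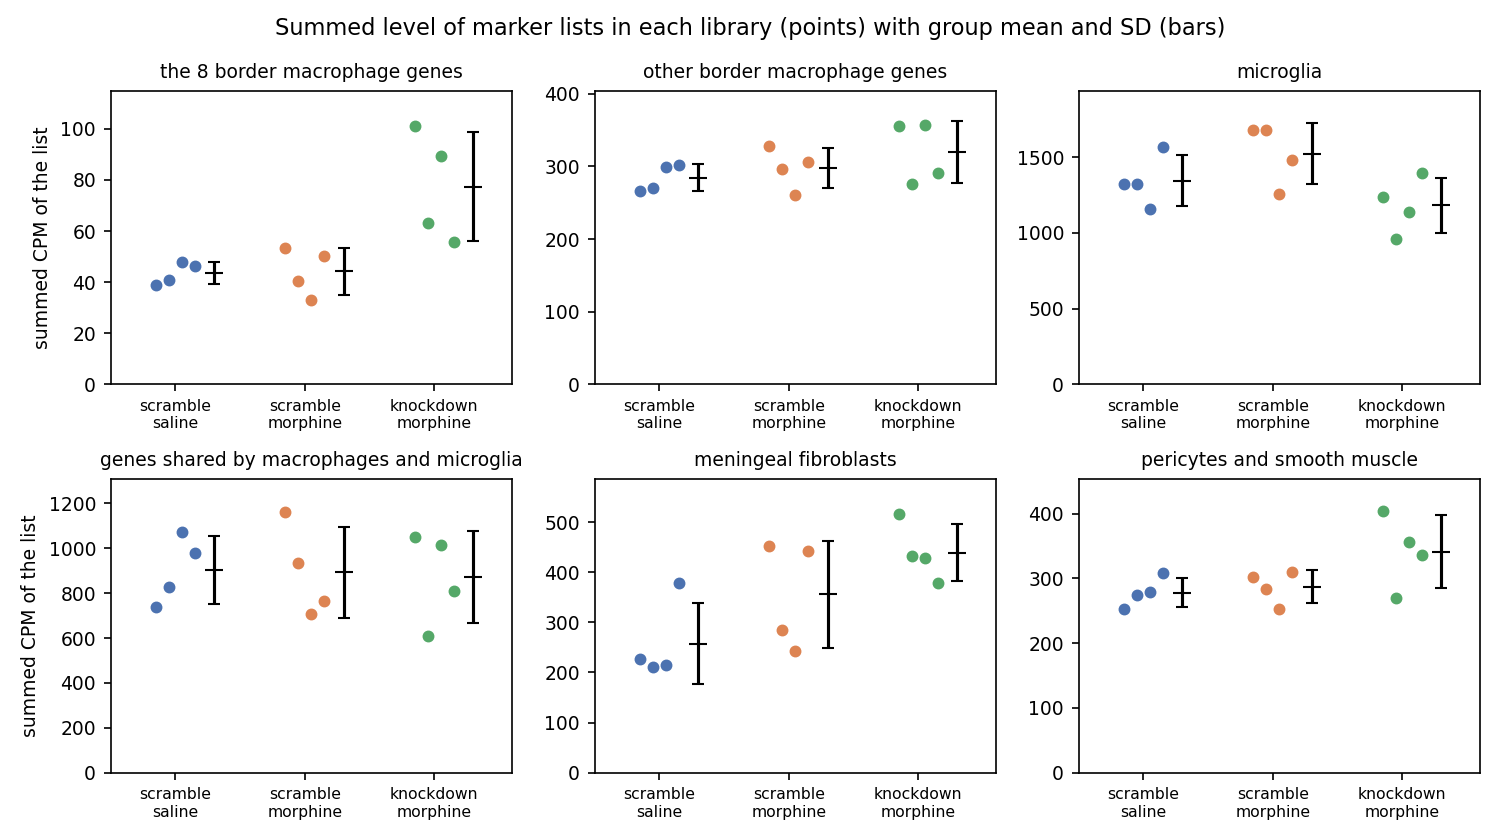
Summed CPM of 6 marker lists in each library (points) by group, with mean and SD (bars, 4 libraries per group). The sum of the 8 genes is higher in all knockdown libraries (55.9 to 101 CPM) than in all scramble libraries (32.9 to 53.3). The groups overlap for the other lists. Other border macrophage genes span 275 to 358 CPM in knockdown morphine, 261 to 328 in scramble morphine and 266 to 303 in scramble saline. Meningeal fibroblasts are at 378 CPM or more in every knockdown library, and reach 452 in scramble morphine and 379 in scramble saline.

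Markers of cells that neighbour border macrophages stood higher in some of the same libraries. Markers of meningeal fibroblasts summed to 210 to 379, 244 to 452 and 378 to 516 CPM in scramble saline, scramble morphine and knockdown morphine. Of 18 such genes 16 lay above 0 between knockdown and scramble with morphine (median 0.30; 1 higher at an unadjusted edgeR p under 0.05, as 5.87% of all genes were), 17 in morphine against saline (median 0.45; 7 higher, all genes 1.67%) and 18 in knockdown morphine against scramble saline (median 0.75; 15 higher, all genes 4.97%), and 0 passed the adjusted test in each. Col1a2, a collagen chain, and Mgp, matrix Gla protein, differed by 0.82 (SE 0.20) and 1.27 (SE 0.32) in the last comparison. Pericyte and smooth muscle markers had 13 of 13 above 0 between knockdown and scramble with morphine (median 0.25; 4 higher at an unadjusted edgeR p under 0.05), and blood vessel endothelium had 12 of 13 (median 0.23; 5 higher), where 5.87% of all genes were higher, with Pecam1 at 0.34 (SE 0.11). How much of the border macrophage difference goes with the amount of meninges or vessel in each sample was not tested.

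Blood-borne cells were followed for the same reason. Of 15 monocyte and neutrophil markers 9 could be tested. Between knockdown and scramble with morphine all 9 lay above 0 (median 0.59), where 50.7% of all genes did. Of the 9, 0 had an unadjusted edgeR p under 0.05, where 5.87% of all genes were higher and 6.17% lower. Knockdown morphine against scramble saline had 4 of the 9 above 0 (median -0.12), and morphine against saline had 1 (median -0.71). Their summed level was 21.2 to 27.2, 17.3 to 24.5 and 20.0 to 36.7 CPM in scramble saline, scramble morphine and knockdown morphine. Vcan alone averaged 18.2, 17.9 and 20.0 of mean sums of 24.4, 21.9 and 26.9 CPM, so the sum mostly holds that gene. Red cell markers summed to 97.0 to 415, 118 to 187 and 117 to 198 CPM. Of 6 tested, 0 lay above 0 in morphine against saline (median -0.74) and 1 in knockdown morphine against scramble saline (median -0.54). At an unadjusted edgeR p under 0.05, 1 was lower in the first of these (1.82% of all genes) and 0 in the second (4.37%). Between knockdown and scramble with morphine 6 of 6 lay above 0 (median 0.14), and 0 had an unadjusted edgeR p under 0.05 (5.87 and 6.17% of all genes). Of lymphatic endothelium, which also makes Lyve1, 5 of 6 markers could be tested. Pdpn was the 1 higher at an unadjusted edgeR p under 0.05 (0.44, SE 0.19), as 5.87% of all genes were. With so few genes tested, this count is not read as a result about the list. Lyve1 differed by 1.08 in the same comparison.

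Pathways in which the 8 genes act gave mixed values. In scavenging and haem clearance, where Cd163 and Stab1 work, 10 of 16 tested genes lay above 0 between knockdown and scramble with morphine (median 0.07), and 5 were higher and 1 lower at an unadjusted edgeR p under 0.05 (5.87 and 6.17% of all genes). Msr1, the class A scavenger receptor, averaged 1.27 ± 0.95 CPM in knockdown and 0.335 ± 0.053 CPM in scramble morphine libraries (SD, n = 4 each), a log2 difference of 1.92 (SE 0.49, edgeR adjusted p = 0.264), and against scramble saline it differed by 1.12 (SE 0.47). Alternative activation had 8 of 12 above 0 (median 0.15) and 1 higher, Irf4 (0.82, SE 0.38), and Il10 was at 0 in all libraries. Growth factors of macrophages and their signalling, such as Csf1, Il34 and Csf1r, had 8 of 15 above 0 (median 0.03) and 0 under an unadjusted edgeR p of 0.05.

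Glucocorticoids induce Mrc1, Cd163 and other genes of macrophages, and glucocorticoid-induced genes were counted for that reason. The list was chosen with earlier results of these data known, so its counts beside those of all genes are a description and test no enrichment. In knockdown morphine against scramble saline 3 of 23 passed at an adjusted edgeR p of 0.05, the only calls in that comparison (0.0137% of all genes): Plin4, a lipid droplet protein, rose by 1.35 (SE 0.20), Fmo2, a monooxygenase, by 1.23 (SE 0.18) and Zbtb16, a zinc finger factor, by 0.48 (SE 0.07; adjusted p = 0.0489 for each). None of the 3 passed with library totals as the only scaling, with voom, with the ribosomal share as a covariate, with the replicate block or without scramble saline replicate 4 and knockdown replicate 3, each of which left 0 genes passing. Leaving out any 1 library also left 0, apart from scramble saline replicate 3 (1 gene), scramble morphine replicate 4 (7) and knockdown replicate 5 (55). In all, 7 were higher and 0 lower at an unadjusted edgeR p under 0.05, where 4.97 and 4.37% of all genes were (9.35% in either direction). Between knockdown and scramble with morphine 2 were higher and 2 lower (median 0.07; all genes 5.87 and 6.17%), and in morphine against saline 8 were higher and 0 lower (median 0.23; all genes 1.67 and 1.82%). The summed level ran from 810 to 1145, 1177 to 1375 and 907 to 1234 CPM in scramble saline, scramble morphine and knockdown morphine. Whether glucocorticoid-induced genes bear on the 8 border macrophage genes was not tested.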

How the data were processed

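RNA was measured in 12 libraries by poly(A)-selected, dUTP-marked, paired-end sequencing, per the labels' protocols. The authors deposited whole-number read counts per gene and no normalized values. The submitters' processing notes list the build mm10, HISAT2 2.0.4, StringTie 1.3.4d, cutadapt 1.9, edgeR and DESeq2 with no roles. For the annotation release and for strand use in counting, the sources used here give nothing.

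Of 55401 gene IDs, 55141 matched a symbol. Groups came from the labelled treatment. Counts were tested with edgeR 4.0.16 (limma 3.58.1) in R 4.3.3: filterByExpr (minimum 10 counts) left 21958 genes, scaled by TMM, with a robust quasi-likelihood fit of 1 mean per group to all 12 libraries (biological coefficient of variation 23.2%, 9 residual degrees of freedom). Tests were two-sided, with Benjamini-Hochberg adjustment over all genes tested. CPM use TMM-scaled library sizes. Exon lengths and coordinates came from GENCODE mouse release M21. Relations used log2 CPM with a prior count of 1 and 100000 permutations within groups. Pairs of libraries within a group differed by a chi-square per gene of at least 12.5, so none of them agreed within sampling noise.

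The genes, marker lists and alternatives were chosen with earlier results of these data known. The 8 genes were always named. Of each list, genes passing at 0.05 were named, otherwise up to 3 with the smallest p, as values. For likeness to Mrc1 the 10 highest r were named, leaving out predicted models. Tests were tried on simulated counts with 200 changed genes. The test recovered 48.5, 74.6 and 97% of genes changed by 0.5, 1 and 2 on the log2 scale, with 5 false calls, for knockdown against scramble with morphine (21302 genes). It recovered 36.2, 79.1 and 96.9% with 7 false calls for morphine against saline (21334 genes), and 23.9, 83.8 and 93.8% with 9 false calls for knockdown morphine against scramble saline (21341 genes). Too few calls thus say little about genes that differ by a small amount. These percentages were split by size of change and not by transcript level. Recovery of transcripts as scarce as Lyve1, Pf4 and Cbr2 was not tested, so the percentages are not read for them. Alternatives were other scalings and filters, limma voom with sample weights, DESeq2 1.42.0, a fit of only the compared groups, the ribosomal RNA share or 1 surrogate variable (sva 3.50.0) as a covariate, the replicate number as a block, and libraries left out. The adjustment over all 28 pairs was chosen after seeing the data.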

Additional observations from a re-analysis of the deposited data

Results flagged for a closer look

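Of 24 groups of 4 libraries (8 genes in 3 groups), 3 held a library far from the other 3 by Dixon's test at 95%, where chance flags about 1 group in 20. Cd163 stood at 2.88 CPM in knockdown morphine replicate 2, with the nearest of its group at 3.31 CPM. Pf4 stood at 0.933 CPM in scramble saline replicate 2, with the nearest at 0.527 CPM, and at 1.46 CPM in knockdown morphine replicate 1, with the nearest at 0.796 CPM. The ribosomal RNA locus also took its largest share of counts in knockdown replicate 1, 9.38% against 4.57 to 6.79% in the rest of its group, and its part in the Pf4 value was not tested.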

How the results depend on the processing

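The median log2 difference of the 8 genes stayed above 0 under all 23 alternatives of each comparison: 0.58 to 0.83 for knockdown against scramble with morphine, 0.78 to 1.16 for knockdown morphine against scramble saline, and 0.03 to 0.47 for morphine against saline, where leaving out 1 library gave 0.033 to 0.46. The difference of Mrc1 between knockdown and scramble with morphine ran from 0.79 to 1.20.

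Counts of genes passing depended on the test and on single libraries, and the causes were not tested. For morphine against saline (0 genes) they were 4 with DESeq2, 1 with only the compared groups and 0 to 0 with each library left out. For knockdown against scramble with morphine (0) they were 2 without the filter, 157 with DESeq2, 1 with voom, 1 with a surrogate variable, 5 when scramble saline replicate 4 was left out together with knockdown replicate 3, and 0 to 375 with each library left out (375 without knockdown replicate 5, 4 without scramble saline replicate 4, 2 without knockdown replicate 3). For knockdown morphine against scramble saline (3) they were 0 with library totals, 5 without the filter, 147 with DESeq2, 0 with voom, 5 with only the compared groups, 0 with the ribosomal share, 15 with a surrogate variable, 0 without those 2 libraries, and 0 to 55 with each library left out (55 without knockdown replicate 5).

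Deviations of samples with the same replicate number correlated weakly (-0.0038, 0.028 and 0.034, then 0.115, -0.0085 and 0.083, then 0.056, -0.013 and 0.098 in the 3 comparisons). The main fit did not use the numbers as pairs. Samples with different numbers were not compared in this way, so pairing by number was not tested. The replicate block gave 1, 2 and 0 genes passing in the order of the comparisons.

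Single genes turned in direction mainly in morphine against saline. There Stab1 (-0.07) became 0.0047 with voom, 0.046 with the ribosomal share and 0.020 without the 2 libraries, and ran from -0.19 to 0.030 with each library left out (0.021 without the saline library of replicate 4). Mrc1 (0.15) became -0.017 with the block and ran from -0.045 (without scramble morphine replicate 5) to 0.29. Cd163 (0.23) became -0.11 with the block and ran from -0.092 (without scramble morphine replicate 1; -0.012 without scramble saline replicate 2) to 0.50, and Lyve1 (0.48) ran from -0.15 (without scramble morphine replicate 5) to 0.76. Between knockdown and scramble with morphine, Pf4 (0.17) became -0.63 and Cbr2 (0.61) -0.15 with the ribosomal share, and Pf4 ran from -0.15 (without knockdown replicate 1) to 0.29. Against scramble saline, Ms4a7 (0.14) ran from -0.094 (without knockdown replicate 3; also below 0 without scramble saline replicate 2 or 3, -0.0099 and -0.0020) to 0.40. The r of Mrc1 ran from -0.36 (without knockdown replicate 1) to 0.319 with Pf4 and from -0.030 (without knockdown replicate 2) to 0.526 with Ms4a7. Of the 7 relations of Mrc1, 2 passed, 0 to 2 with each library left out and 0 when adjusted over 28 pairs. Pf4 had too few counts to be tested at 1 CPM in 4 libraries.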
